A study of Mus musculus with 6 samples.

Results

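The sites described here are the strong Rev-erbα binding sites of mouse liver that do not stand in the authors' list of sites independent of the DNA-binding domain (DBD). They were taken from the list of Rev-erbα peaks at zeitgeber time (ZT) 10, which holds 11767 peaks, as the peaks in positions 1 to 2354 (the top section of the list when it is cut into 5 near-equal sections in file order) whose coordinates are absent from the DBD-independent list. This gave 1256 sites, called top-ranked outside sites below. They made up 53.4% of the top section, 10.7% of all ZT10 peaks and 15.3% of the 8188 peaks outside the DBD-independent list. Place in the file and absence from the second list chose these sites, so neither is a finding. The ZT10 list holds no score, and file order stands in for strength of binding. That absence from the DBD-independent list means a need for the DBD is not stated in the sources used here.

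The samples were livers of male C57B/6 mice, 12 weeks old, kept on normal chow and a normal light/dark schedule without treatment. Chromatin immunoprecipitation sequencing (ChIP-seq) used an antibody against Rev-erbα on 3 wild-type livers (WT) and 3 livers labelled HNF6 KO. How HNF6 was removed, and from which liver cells, is not given in the sources used here. Neither list names a sample or holds a value for a single liver, and the sources used here do not give which livers were pooled. Binding in WT and HNF6 KO livers is therefore not compared, and the depth per liver is unknown.

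Rev-erbα is a nuclear receptor of the circadian clock that represses transcription by recruiting the corepressor NCoR with the histone deacetylase HDAC3. Its DBD recognises a short nuclear receptor element with an A-rich flank, the RORE, which activating ROR receptors also use, and at such sites Rev-erbα is known to repress clock genes. In liver it is also known to be held on chromatin through other proteins, among them the Onecut factor HNF6, which helps to specify hepatocytes and bile duct cells, near genes of lipid metabolism. Gene names, exon or intron annotation and the sequences under the peaks are not analysed here, because coordinates refer to the mouse build mm9 and neither an mm9 genome nor an mm9 annotation was used.

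The first top-ranked outside site stood at position 6 of the ZT10 list, on chromosome 1 at 177538268 to 177538417. Its neighbours in file order, at positions 5 and 7, were DBD-independent peaks with first values of 89 and 93. Every peak was 150 bp wide. The first value is one of 2 unlabelled whole numbers that the authors deposited with each DBD-independent peak, and its unit is not stated. Outside sites carry no such number, so only the DBD-independent peaks around them give a rough idea of their strength. First values did not fall steadily along the file, as positions 5 and 7 show, so they set no bounds. The 1098 DBD-independent peaks of the top section had a lowest first value of 11, a median of 24 and a highest of 103. Those later in the list had a lowest of 1, a median of 10 and a highest of 23, so the ranges overlapped.

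Top-ranked outside sites were present along the whole top section. With the top section divided into 10 bins, the outside share was lowest in the first bin, with 112 of 236 peaks (47.5%), and highest in the last, with 143 of 235 peaks (60.9%). Across the full ZT10 list in 20 bins it ran from 49.6% (292 of 589 peaks) to 90.3% (531 of 588 peaks). The median position was 1254 for top-ranked outside sites and 1116.5 for the DBD-independent peaks of the same section.

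**Figure D1:**
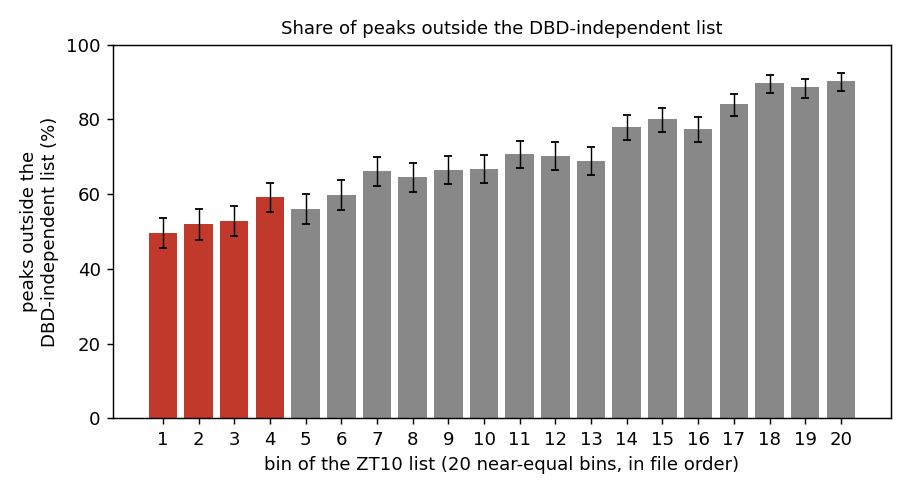
Share of peaks outside the DBD-independent list (vertical axis, percent) in each of 20 near-equal bins of the ZT10 list in file order (horizontal axis), with 95% Wilson intervals as error bars. The 4 red bars hold the top-ranked outside sites and the grey bars the later peaks, and the share runs from 49.6% in the first bar to 90.3% in the last.

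The edge of the class fell among peaks that the file appears not to rank against each other, read from the order of their coordinates alone. Read from the top, the ZT10 list consists of 129 stretches within which chromosome and start ascend in text order (1, 10, 11 and so on), after which the order starts again. Stretches were short at the head of the list and reached 994 peaks at its end. Position inside a stretch follows the chromosome name and start, so it was not read as strength. The stretch at the edge ran from position 2267 to 2387 and held 121 peaks, of which 88 lay inside the top section and 33 after it. The 88 lay on chromosomes 1 to 5 and 10 to 19, the 33 on chromosomes 5 to 9 and X. Just inside the edge were outside sites at positions 2350 (chromosome 4, 45535994 to 45536143), 2353 (chromosome 5, 104166151 to 104166300) and 2354 (chromosome 5, 112719368 to 112719517). Just beyond it were outside sites at positions 2356, 2357 and 2358, all on chromosome 5, starting at 44441632, 54348723 and 92751722. With the edge moved to the start of this stretch the class held 1200 sites, and with the edge at its end 1274.

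**Figure D2:**
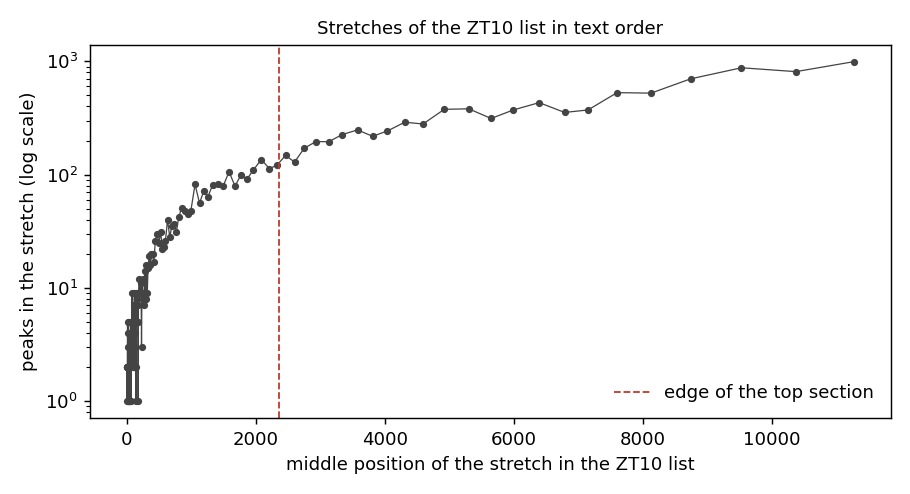
Number of peaks in each stretch of the ZT10 list that is in text order (vertical axis, log scale) against the middle position of the stretch in the list (horizontal axis). The dashed line marks the edge of the top section at position 2354, which cuts a stretch of 121 peaks, and the longest stretch, of 994 peaks, is the last.

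The question of where strong outside sites lie was taken up first by chromosome. They were found on all 19 autosomes and, in 3 cases, on the X chromosome. Chromosome 2 held the most, 97 sites (7.72%), and chromosome 19 held 66 (5.25%). Compared with the 1098 top-ranked DBD-independent sites, 0 of 20 chromosomes differed in share at an adjusted p under 0.05 (0% of those tested, Fisher's exact test with Benjamini-Hochberg adjustment). At an unadjusted p under 0.05, 1 chromosome stood out. This was chromosome 2, with 97 of 1256 outside sites (7.72%) and 57 of 1098 DBD-independent sites (5.19%; Fisher's exact test, p = 0.0152, adjusted p = 0.304).

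Strong outside sites were rare on the X chromosome compared with weaker ones. Of the 1256 top-ranked outside sites 3 lay there (0.239%, 95% Wilson interval 0.0813 to 0.700%), against 145 of the 6932 outside peaks after the top section, called lower-ranked outside sites. The difference was -1.85 percentage points (Fisher's exact test, p = 1e-07, adjusted p = 2.1e-06), and X was the 1 chromosome of 21 tested (4.76%) that differed between these classes. Chromosome 19 had the next smallest p, with 66 of 1256 against 254 of 6932 sites (Fisher's exact test, p = 0.009, adjusted p = 0.0945). The scarcity on X was shared by DBD-independent peaks, of which 7 of 1098 in the top section (0.638%) and 51 of 2481 later ones (2.06%) lay there (Fisher's exact test, p = 0.00137). All mice were male, with a single X chromosome, and the part of this in the difference was not tested. The 3 sites on X stood at position 176 (166418929 to 166419078), position 1099 (34073873 to 34074022) and position 2153 (99717721 to 99717870). They lay 101.4, 56.5 and 17.1 kb from the nearest other ZT10 peak.

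**Figure D3:**
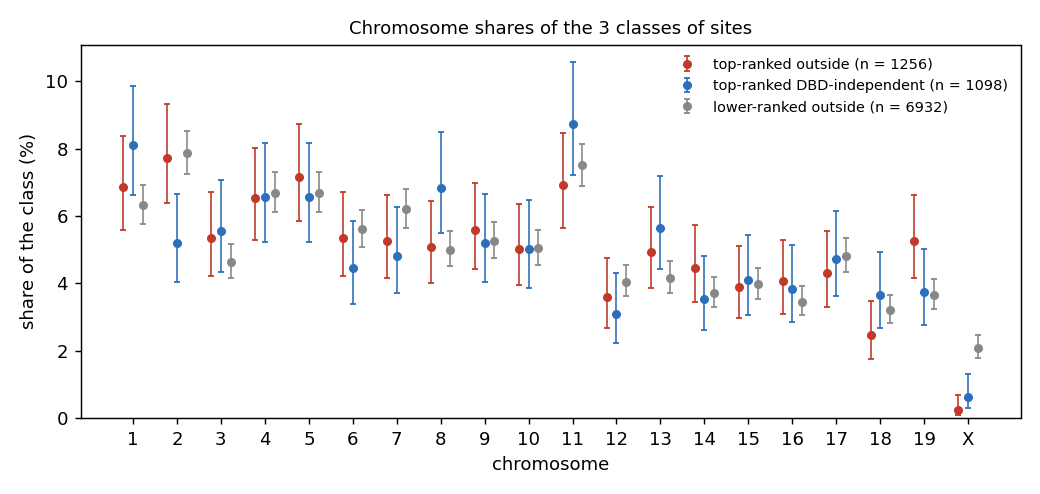
Share of each class of sites on each chromosome (vertical axis, percent; horizontal axis, chromosome), with 95% Wilson intervals as error bars. Top-ranked outside sites (red) lie near the other classes on the autosomes, and on X they stand at 0.239%, below the lower-ranked outside sites (grey).

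Strong outside sites stood closer to other Rev-erbα peaks than weak ones did. Another ZT10 peak of any kind lay within 10 kb of 508 top-ranked outside sites (40.4%, 37.8 to 43.2%), against 1951 of 6932 lower-ranked outside sites (28.1%, 27.1 to 29.2%). The difference was 12.3 percentage points (95% interval 9.41 to 15.2; Fisher's exact test, p = 1.1e-17, adjusted p = 6.6e-17 over 12 comparisons of shares). The median distance to the nearest peak was 16.4 kb for top-ranked outside sites (quartiles 4.73 and 47.0 kb) and 26.5 kb for lower-ranked ones. Sites that neighbour each other are both counted, so they are not independent, and the intervals cover counting error only.

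Against DBD-independent sites of the same section the difference was smaller and depended on the window. Within 10 kb, 385 of 1098 DBD-independent sites had a neighbour (35.1%, 32.3 to 37.9%), which is 5.38 percentage points below the outside sites (1.45 to 9.27; Fisher's exact test, p = 0.00734, adjusted p = 0.0176). Within 5 kb the difference was 0.273 points (Fisher's exact test, p = 0.887) and within 50 kb 1.63 points (p = 0.359), so at neither of these distances was it past the threshold. At positions 1 to 1177 alone it was 5.05 points (Fisher's exact test, p = 0.0797), and at positions 1178 to 2354 it was 5.52 points (p = 0.0544).

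**Figure D4:**
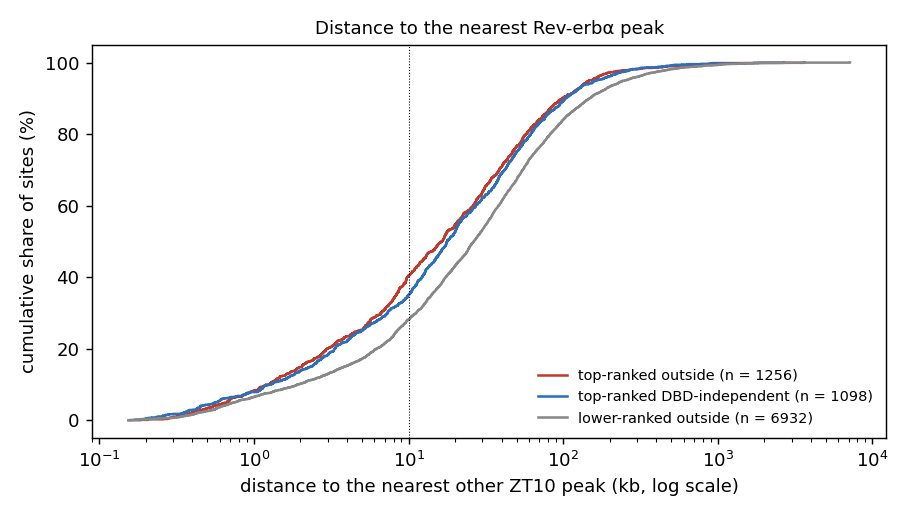
Cumulative share of sites (vertical axis, percent) by distance to the nearest other ZT10 peak (horizontal axis, kb, log scale) for 3 classes, with a dotted line at 10 kb. At this line the curve of the top-ranked outside sites (red) is at 40.4%, that of the top-ranked DBD-independent sites (blue) at 35.1% and that of the lower-ranked outside sites (grey) at 28.1%.

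Among outside sites the share with a neighbour was lower in each later section of the list. It was 40.4% in section 1, the top section, 35.6% in section 2 (517 of 1451), 33.9% in section 3 (547 of 1615), 29.1% in section 4 (522 of 1792) and 17.6% in section 5 (365 of 2074). The intervals of section 1, 37.8 to 43.2%, and of section 2, 33.2 to 38.1%, overlapped slightly. For DBD-independent sites the share was 35.1% in section 1 and 36.3% in section 2 (328 of 903). It was 31.4% in section 3 (232 of 739), 32.6% in section 4 (183 of 562) and 22.4% in section 5 (62 of 277). Outside sites thus had the higher share in sections 1 and 3, and DBD-independent sites in sections 2, 4 and 5. These differences were not tested beyond section 1.

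**Figure D5:**
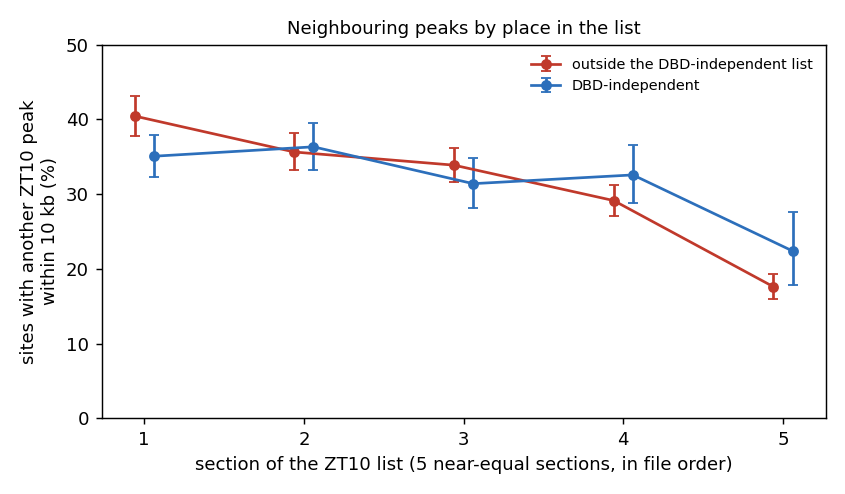
Share of sites with another ZT10 peak within 10 kb (vertical axis, percent) by section of the ZT10 list (horizontal axis, 5 near-equal sections in file order), for peaks outside the DBD-independent list (red) and in it (blue), with 95% Wilson intervals. The red points run from 40.4% to 17.6%, and the blue points from 35.1% to 22.4%.

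The neighbours of strong outside sites were more often themselves top-ranked than those of weak ones. A peak of the top section lay within 10 kb of 204 top-ranked outside sites (16.2%, 14.3 to 18.4%), against 481 lower-ranked ones (6.94%, 6.36 to 7.56%), a difference of 9.30 points (Fisher's exact test, p = 8e-24, adjusted p = 9.6e-23). Among the 508 top-ranked outside sites with a neighbour in this window, the nearest was a peak of the top section in 169 cases (33.3%), against 414 of 1951 lower-ranked ones (21.2%; Fisher's exact test, p = 3.2e-08, adjusted p = 9.7e-08). File position both chose these classes and scored their neighbours. Of the 204 sites, 119 had another top-ranked outside site within 10 kb, and such sites count each other. These comparisons with lower-ranked sites are therefore description only. Top-ranked DBD-independent sites had a peak of the top section within 10 kb in 179 of 1098 cases (16.3%). That share differed from the 16.2% of outside sites by -0.0603 points (-3.07 to 2.92; Fisher's exact test, p = 1).

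Strong outside sites had a DBD-independent peak close by more often than weak ones did. A DBD-independent peak lay within 10 kb of 214 top-ranked outside sites (17.0%, 15.1 to 19.2%) and of 690 lower-ranked ones (9.95%), a difference of 7.08 points (Fisher's exact test, p = 2.6e-12, adjusted p = 1.1e-11). For the top-ranked DBD-independent sites it was 169 of 1098 (15.4%), and the difference of 1.65 points from the outside sites was not past the threshold (-1.35 to 4.61; Fisher's exact test, p = 0.288). Where a top-ranked outside site had a neighbour in 10 kb, the nearest was DBD-independent in 177 of 508 cases (34.8%). The same held for 147 of 385 top-ranked DBD-independent sites (38.2%; Fisher's exact test, p = 0.325) and 606 of 1951 lower-ranked outside sites (31.1%; p = 0.109). For comparison, 30.4% of all ZT10 peaks were DBD-independent. Neither comparison showed that outside sites kept to neighbours of one kind. A ZT10 peak of any kind was also within 10 kb of more top-ranked than lower-ranked outside sites (40.4% against 28.1%). The DBD-independent list both helped to choose the classes and scored their neighbours. The comparisons in this paragraph are therefore description only. The median distance from a top-ranked outside site to the nearest DBD-independent peak was 77.3 kb. It was 75.4 kb for top-ranked DBD-independent sites and 102.9 kb for lower-ranked outside sites.

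The 10 highest outside sites had between 0 and 3 other ZT10 peaks within 50 kb. The site at position 6 had its nearest peak 57.7 kb away and 0 other peaks within 50 kb. The site at position 14, on chromosome 4 at 62763123 to 62763272, was as isolated, with its nearest peak at 54.8 kb. The site at position 8, on chromosome 1 at 90174078 to 90174227, was the closest of the 10 to another strong site. A DBD-independent peak at position 41, with first and second values of 61 and 43, lay 1725 bp from it.

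Another 2 of the 10 lay on chromosome 1 near each other, at position 11 (39189908 to 39190057) and position 26 (39249630 to 39249779). The nearest peak to the former was 30.0 kb away and the nearest to the latter 5580 bp away, both DBD-independent peaks from later in the list (positions 8418 and 3236). On chromosome 11 were the sites at position 16 (21021682 to 21021831) and position 19 (117479730 to 117479879). The latter had another top-ranked outside site, at position 291, as its nearest peak, 22.2 kb away, and its nearest DBD-independent peak was 172.0 kb away.

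The site at position 9, on chromosome 17 at 29231556 to 29231705, had its nearest peak at 40.3 kb. The site at position 17, on chromosome 8 at 10940004 to 10940153, lay 11.5 kb from a DBD-independent peak that the authors placed at -170 bp from its point. These points are described below. The last of the 10, at position 27 on chromosome 16 (4880526 to 4880675), had a second top-ranked outside site 5484 bp away, at position 1666.

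Runs made of strong outside sites alone were short, and these sites are only 10.7% of all ZT10 peaks. Chained at up to 10 kb, 1137 of the 1256 sites stood alone, 110 sites formed 55 pairs and 9 sites formed 3 runs of 3. In 52 of these 58 runs no other ZT10 peak lay between the members, and 1 run enclosed a DBD-independent peak. The 3 longest runs lay on chromosome 19 from 46166292 to 46174846 (positions 106, 1130 and 1334), on chromosome 5 from 9034012 to 9046185 (positions 533, 776 and 912) and on chromosome 9 from 65145049 to 65154810 (positions 563, 922 and 1905). The run on chromosome 9 was the one with a DBD-independent peak inside. Another top-ranked outside site lay within 10 kb of 9.47% of top-ranked outside sites. The share was 8.65% for top-ranked DBD-independent sites and 4.24% for lower-ranked outside sites.

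Some strong outside sites formed tight doublets, which were looked at after their values were seen. In 13 pairs both members lay within 1 kb of each other. The closest centres were 206 bp apart, on chromosome 8 from 116641355 to 116641710, at positions 163 and 821 of the list. On chromosome 5 from 122398332 to 122398757 the centres were 276 bp apart (positions 84 and 1006), and on chromosome 11 from 51668552 to 51668988 they were 287 bp apart (positions 467 and 722). Whether the members of a doublet are separate sites or 1 wide region that was split in peak calling was not tested. Close neighbours were not particular to this class. Some other ZT10 peak lay within 1 kb of 8.20% of top-ranked outside sites. The share was 7.92% for top-ranked DBD-independent sites and 6.58% for lower-ranked outside sites.

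Crowding around strong outside sites ranged from 0 to 9 other ZT10 peaks within 50 kb, with a median of 1. No other peak lay in this distance of 293 sites (23.3%), and 130 sites had 4 or more. The most crowded site, on chromosome 8 at 87231272 to 87231421 (position 1527), had 9 neighbours, of which 6 were lower-ranked outside peaks, 2 were DBD-independent peaks from later in the list and 1 was a top-ranked DBD-independent peak at position 1014. It was the only top-ranked outside site in that neighbourhood. The next value, 6 neighbours, was reached by 11 sites, and the highest of these in the list were a site on chromosome 15 at 10132408 to 10132557 (position 175) and one on the same chromosome at 10179088 to 10179237 (position 329).

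At the other extreme, the most remote site, chosen after its value was seen, lay on chromosome 15 at 16774105 to 16774254 (position 1243), 3646 kb from the nearest other peak. On chromosome 14, the sites at 99526082 to 99526231 (position 1936) and 100533607 to 100533756 (position 1038) were the farthest from a DBD-independent peak, at 18963 and 17955 kb. They did have outside peaks at 89.8 and 38.8 kb. The long gap on this chromosome was therefore one in the DBD-independent list and not in the ZT10 list. The third farthest site, on chromosome 13 at 120189180 to 120189329 (position 2177), lay 5312 kb from a DBD-independent peak. The authors deposited a distance with each DBD-independent peak, described below, and the largest one given in this text is 98530 bp. Whether the DBD-independent list leaves out peaks beyond some distance was not tested. Such a limit would by itself put remote peaks outside the list, so these gaps are description only.

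The closest pairs of a strong outside site and a DBD-independent peak had centres about as far apart as the doublets. On chromosome 11 the outside site at 112581890 to 112582039 (position 52) lay 282 bp from a DBD-independent peak at position 7927 with a first value of 9. Similar spacings were found on chromosome 5 (300 bp; site at 130520125 to 130520274), chromosome 15 (306 bp; 60825961 to 60826110), chromosome 10 (329 bp; 121817157 to 121817306) and chromosome 8 (336 bp; 95757588 to 95757737). In the pair on chromosome 8 both peaks were strong, at positions 586 and 508. In the pair on chromosome 5 the DBD-independent peak stood at position 1079 and the outside site at 2119. In the other 3 pairs the DBD-independent peak stood later in the list than the outside site.

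How strong outside sites lie relative to genes could be read only at points that DBD-independent peaks define. The authors deposited a signed distance with each DBD-independent peak, and the form of these distances is that of distances to transcription start sites. The column has no header, and a negative sign was taken to mean that the peak is upstream of its point. At 472 points the distances of at least 2 DBD-independent peaks met at the same base, which under this reading of the sign gives the strand as well. The opposite reading would give the same points with the strand, upstream and downstream exchanged. Of the top-ranked outside sites 10 lay within 1 kb of such a point (0.796%, 0.433 to 1.46%), against 36 of the lower-ranked ones (0.519%), which did not differ past the threshold (Fisher's exact test, p = 0.220). Within 10 kb of a point lay 46 top-ranked outside sites (3.66%) and 115 lower-ranked ones (1.66%). With another set of reference places, namely 1073 DBD-independent peaks whose deposited distance was at most 1 kb, this gap was not seen. Within 10 kb of such a peak lay 42 top-ranked outside sites (3.34%) and 219 lower-ranked ones (3.16%). Within 1 kb of one lay 8 top-ranked outside sites (0.637%, 0.323 to 1.25%) and 77 lower-ranked ones (1.11%, 0.890 to 1.39%), the opposite order to that at shared points. These differences were not tested. Most transcription start sites are not among the shared points, so these are not shares of promoter sites.

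All 10 top-ranked outside sites within 1 kb of a shared point lay upstream of it, with the sign read as above. Among the lower-ranked outside sites 20 of 36 did (55.6%, 39.6 to 70.5%; Fisher's exact test, p = 0.00883, adjusted p = 0.0177). This difference was 44.4 percentage points, and it was not past the threshold within 500 bp (7 of 7 against 19 of 31, Fisher's exact test, p = 0.0745) or within 2500 bp (12 of 18 against 24 of 47, p = 0.282). The pattern was noticed before it was tested, and 2 of the 10 sites share a point.

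These 2 sites formed a doublet just upstream of their point. On the plus strand of chromosome 7 the point at 120350979 had an outside site at -15 bp (120350890 to 120351039, position 55) and another at -337 bp (120350568 to 120350717, position 1615). The point was defined by 3 DBD-independent peaks, which lay 43814 to 54405 bp downstream and had a highest first value of 21. At the point itself binding was thus outside the DBD-independent list, and the DBD-independent peaks that refer to it were distant.

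A like arrangement was found on chromosomes 8 and 19. On the plus strand of chromosome 8 an outside site (47824928 to 47825077, position 483) lay at -97 bp from the point at 47825099, and the 3 DBD-independent peaks of this point lay 10918 to 98530 bp downstream. On the plus strand of chromosome 19 an outside site (31943096 to 31943245, position 1188) lay at -81 bp from the point at 31943251, with 3 DBD-independent peaks 2022 to 18630 bp downstream. On the minus strand of chromosome 11 an outside site (11798075 to 11798224, position 1302) lay at -2 bp from its point, and here the 2 DBD-independent peaks lay upstream, at -39690 and -25536 bp.

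The opposite arrangement, with a DBD-independent peak at the point and the outside site beside it, was seen on the plus strand of chromosome 7 at 138554115. There a DBD-independent peak lay at -4 bp and an outside site (138553326 to 138553475, position 1616) at -715 bp. The remaining 4 sites lay between -990 and -166 bp of points on chromosomes 1, 9, 13 and 19. Genes at these points are not named, for want of an mm9 annotation.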

How the data were processed

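Rev-erbα ChIP-seq was done on 3 WT and 3 HNF6 KO livers. Per the submitters' processing notes, Bowtie, HOMER and the build mm9 were used. The sources used here do not give settings or versions, nor which samples were pooled, nor the rule behind the DBD-independent list. Distances and the 2 unlabelled values of the DBD-independent list, treated as a score given by the authors, were used as deposited. Whether that list was limited to a range of distances was not tested, and such a limit would place some sites outside it by construction. Every comparison of outside with DBD-independent sites, by chromosome or by neighbours, would then be affected by it. Coordinates are 1-based.

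The lists were matched on identical coordinates; all 3579 DBD-independent peaks were found. Distances run between peak centres. Shares carry 95% Wilson intervals and differences Newcombe intervals, and were compared by two-sided Fisher's exact tests with Benjamini-Hochberg adjustment over 12 comparisons, or over chromosomes. Peaks are not biological replicates, so p-values and intervals describe these lists only. Members, lists and tests were chosen with earlier results of these data known. The comparison with lower-ranked outside sites, the text-order stretches, shared points and doublets were added after seeing the data.

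Named by rule were the 10 highest sites, 3 on each side of the edge, the 3 longest runs, the 3 most crowded sites, and the 5 closest to and 3 farthest from DBD-independent peaks. Planned motif, GC, gene-list and location analyses need an mm9 genome or annotation, and the WT against HNF6 KO test needs values per sample; none was made. Routines were tested on simulated data, and all 11767 nearest distances equalled those of bedtools 2.31.1. Python 3.11.15, numpy 2.4.6, pandas 2.3.3, SciPy 1.17.1 and matplotlib 3.10.9 were used.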

Additional observations from a re-analysis of the deposited data

How the results depend on the processing

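Of 43 alternatives to 10 results, 34 left the direction and the call as they were, a value within its interval or a count within 1.5 times, 6 ended a call and 3 moved a value. Matching by 1 bp overlap or by centres within 100 bp left 1256 sites, and positions 1 to 1177 alone held 597, fewer by construction. A top section of 25% of the list held 1586, more by construction. The difference in neighbour share from top-ranked DBD-independent sites, 5.38 points, was 0.273 at 5 kb, 1.63 at 50 kb, 5.05 at positions 1 to 1177 and 5.52 at positions 1178 to 2354, and past the threshold in none of these. These parts of the list hold fewer sites by construction, and for the windows the cause was not tested. The share of sites with a DBD-independent peak nearby was 10.3% at 5 kb and 39.3% at 50 kb, as wider windows hold more. The upstream difference was 38.7 points within 500 bp, with fewer sites, and 15.6 within 2500 bp, where the cause was not tested. The 4 differences from lower-ranked outside sites in neighbours and X share kept direction and call in every alternative run. Those in which file position or the DBD-independent list scored the neighbours remain description only. For the share beside a peak of the top section, no alternative moved the class edge. Of the 43 alternatives, those with the class edge moved, those on the upstream share and those against lower-ranked outside sites were chosen after seeing the data. No paired analysis was possible because both files give peaks without values for single livers, which also meant that no replicate could be left out. Peaks beyond 1 kb of any start, 300 bp windows and protein-coding genes only were not run without an mm9 genome and annotation. Depth per liver is unknown, so no limit of detection is given.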
